A study of Mus musculus with 8 samples.

Results

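The interval from 3 to 9 h after hCG was described by setting the 9 h arrays of mouse cumulus cells against the 3 h arrays, each 9 h array beside the 3 h array of its own genotype. It covers the hours in which the first wave of induced genes decays or persists and later genes start, before the follicle ruptures. The arrays compared are 4 of the 8 in the series, and the features are all 12422 probe sets of 12488 that are not Affymetrix controls. EP2KO denotes mice with the genotype Ptger2-/-, which lack the EP2 receptor for prostaglandin E2, and WT denotes mice with the gene intact. All were C57Bl/6 females of 3 to 4 weeks that had received 5 IU of PMSG, a gonadotropin with FSH activity that makes follicles grow, and 5 IU of hCG 48 h after it, in place of the LH surge. The 0 h animals had PMSG and no hCG. The series holds 1 array per genotype at 0, 3, 9 and 14 h. Up to 9 h the complexes of oocyte and cumulus cells were let out of punctured follicles and the cumulus cells were taken off by hand, so the 4 arrays compared share a way of collection. At 14 h the complexes had been ovulated and hyaluronidase was used. The starting amount was 100 ng of total RNA, amplified in 2 rounds before labelling. The sources used here do not say whether an array holds cells of 1 mouse or of a pool.

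Cumulus cells surround the oocyte. The LH surge reaches them mainly through EGF-like growth factors and prostaglandin E2 made around them, which raise MAP kinase and cAMP signalling in the cumulus. In answer they synthesise hyaluronan, bind it into a matrix with pentraxin 3 and the heavy chains of inter-alpha-trypsin inhibitor, lose the features of the growing follicle and spread away from the oocyte.

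Levels are given as log2 signals and changes as log2 differences, 9 h minus 3 h, with the standard error of the fit (SE, n = 2 arrays per time, 1 per genotype). A gene rose or fell where its adjusted p was under 0.05 in limma, a linear model fitted to each probe set with time and genotype as terms. Since each group has 1 array, the error comes from what the model leaves unexplained over 8 arrays and may be partly technical. Array medians ran from 7.79 to 7.89. The spread of the values of an array, as its standard deviation over probe sets, was 1.91 in EP2KO and 1.88 in WT at 9 h, against 1.96 in EP2KO and 1.99 in WT at 3 h. The 3' control probe set of Gapdh minus the 5' one, a gap that widens as the labelled product gets shorter, was 1.22 in EP2KO and 1.71 in WT at 9 h, against 0.96 in EP2KO and 0.80 in WT at 3 h. For Actb it was 1.12 and 1.54 in EP2KO and WT at 9 h, against 0.76 and 0.73 at 3 h. These differences move with time, and more in WT than in EP2KO, and their part in the changes below was not tested. Ptger2 itself read 4.69 in EP2KO and 5.37 in WT at 9 h, against 4.24 and 5.97 at 3 h, lower in EP2KO at both times, and where its probes lie relative to the deleted part is not given. In cells taken from tissue, fewer cells of a type and less RNA per cell cannot be told apart.

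Between 3 and 9 h, 943 probe sets rose and 1469 fell, 2412 of 12422 in all (19.4% called, 7.59% higher and 11.8% lower). Of the rises 110, or 11.7%, were at least 2-fold, and of the falls 245, or 16.7%. Counted by gene, each through its probe set with the highest mean, 612 of 8251 genes rose and 1141 fell, or 1753 together (21.2% called, 7.42% higher and 13.8% lower). The median change was 0.065 over probe sets and 0.05 over genes. All 2412 called probe sets moved the same way in both genotypes, as the fit on 1 array per genotype favours. The counts moved when an array was left out. Without the WT array of 9 h 163 probe sets rose and 326 fell, and without that of 3 h 217 rose and 440 fell. Without the EP2KO array of 9 h 428 rose. Falls of at least 2-fold numbered 151 and 157 without the WT arrays of 9 and 3 h, and 386 and 424 without the EP2KO arrays of 9 and 3 h.

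The fate of the early response was read in arrays that had no part in choosing it. Probe sets were put into classes by the change from 0 to 3 h in EP2KO cells alone, with a limit of 2-fold, and followed from 3 to 9 h in WT cells alone. Of 12422 probe sets 338 were early rises, 97 were early falls and 11987 had no early change of that size. The early rises had a median change of -0.80 from 3 to 9 h in WT cells, and 117 of them (34.6%, Wilson 95% interval 29.7% to 39.8%) were lower at 9 h by at least 2-fold, whereas 11 (3.25%) went higher still. Over all probe sets 505 (4.07%) were lower in WT cells by that limit and 162 (1.30%) were higher. Among probe sets with no early change 386 (3.22%) were lower at 9 h and 142 (1.18%) were higher, with a median of 0.09. The decay was incomplete for many. In WT cells at 9 h, 173 early rises (51.2%) still stood at least 2-fold above 0 h, against 304 (2.54%) of the probe sets with no early change and 477 (3.84%) of all. The early falls had a median change of 0.19, and 9 of 97 (9.28%) were higher at 9 h by at least 2-fold and 2 (2.06%) lower. With the classes taken from WT cells and read in EP2KO cells, 904 were early rises with a median change of -0.26, of which 49 (5.42%) were lower at 9 h by at least 2-fold, against 66 (0.588%) of 11219 with no early change and 119 (0.958%) of all. There 251 early rises (27.8%) still stood at least 2-fold above 0 h in EP2KO cells at 9 h, against 116 (1.03%) with no early change. That setting differs both in the genotype that set the classes and in the genotype read, so the shares cannot be put down to either alone. Probe sets of 1 gene share a target and genes are not independent, so the intervals cover counting error only.

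**Figure D1:**
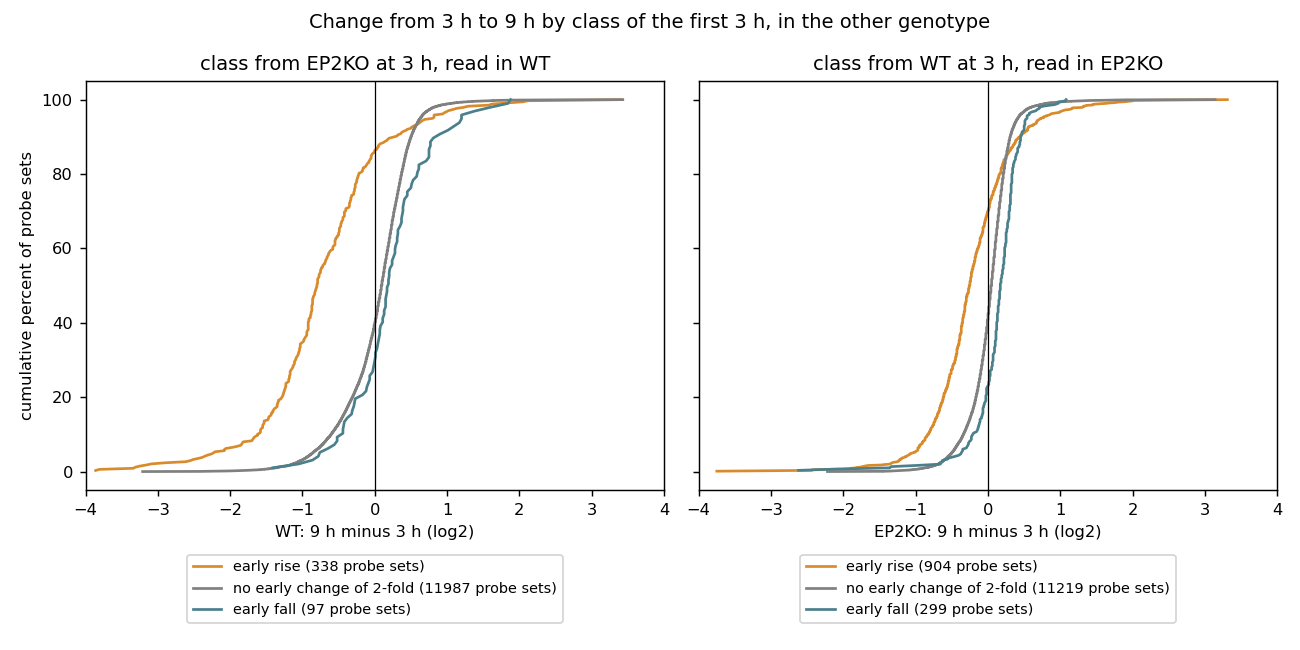
Cumulative percent of probe sets (vertical axis) by the log2 change from 3 to 9 h (horizontal axis), for classes set by the change from 0 to 3 h in the other genotype: EP2KO sets the class and WT is read on the left, the reverse on the right. The curve of early rises lies left of the other curves over most of its length, with medians of -0.80 in WT and -0.26 in EP2KO.

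Among the 15 largest falls of probe sets with 1 gene symbol were transcripts that had peaked at 3 h. F3 encodes tissue factor, which starts the extrinsic path of coagulation. Its level in EP2KO cells was 6.85, 10.66, 7.59 and 9.07 at 0, 3, 9 and 14 h, and in WT cells 6.77, 11.83, 7.97 and 8.60. Both 9 h arrays lay far below both 3 h arrays, and the change was -3.46 ± 0.292 (adjusted p = 0.000139). Has2, the main hyaluronan synthase of cumulus cells, read 7.21, 11.03, 8.64 and 7.45 in EP2KO cells and 7.39, 11.73, 8.64 and 7.39 in WT cells at the 4 times. It fell by 2.74 ± 0.173 (adjusted p = 3.8e-05) to the same 9 h level in both genotypes, still 1.34 above 0 h. Crem, a cAMP-induced transcription factor whose short ICER forms repress cAMP targets, read 7.16 in EP2KO and 7.93 in WT at 9 h, against 9.60 and 11.24 at 3 h. Its change was -2.88 ± 0.256, and a second probe set gave -2.80. Plk2, a polo-like kinase, was back at its 0 h level: it read 8.95, 10.74, 8.74 and 9.19 in EP2KO cells and 8.95, 11.72, 9.11 and 8.96 in WT cells, a change of -2.31 ± 0.231 from 3 to 9 h.

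Srxn1 and Ggct, of thiol redox metabolism, were among the 15 largest falls. Srxn1, sulfiredoxin, which repairs over-oxidised peroxiredoxins, read 7.90 in EP2KO and 8.24 in WT at 9 h, against 9.73 and 11.58 at 3 h (change -2.58 ± 0.351). A second Srxn1 probe set went the other way, with a change of 0.62 (adjusted p = 0.0128), so the probe sets of this gene disagree. Ggct, a gamma-glutamylcyclotransferase of glutathione breakdown, changed by -2.58, from 3 h levels of 9.22 in EP2KO and 10.26 in WT. Tac1, the precursor of substance P, fell by 2.07 and Rbmxl1, an RNA-binding protein, by 1.91. Ifi202b, an interferon-inducible gene, read 4.27 in EP2KO and 4.40 in WT at 9 h, against 5.59 and 7.30 at 3 h. Its 9 h levels were close to the 0 h levels of 4.15 in EP2KO and 4.18 in WT, and the change was -2.11. Ccn2, connective tissue growth factor, read 7.10 in EP2KO and 6.18 in WT at 9 h, against 9.32 and 8.26 at 3 h (change -2.15 ± 0.224), and was higher in EP2KO at both times.

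Others fell after 3 h with no rise before it that passed, or fell through their 0 h level. Aldh1a1, a retinaldehyde dehydrogenase that makes retinoic acid, read 9.78, 9.19, 7.22 and 6.57 in EP2KO cells and 8.92, 9.61, 6.94 and 6.26 in WT cells at the 4 times. Its change was -2.32 ± 0.229 from 3 to 9 h beside 0.05 from 0 to 3 h, a mean over levels that fell in EP2KO and rose in WT. A second Aldh1a1 probe set changed by 0.24 and did not pass. Tenm4, a teneurin of the cell surface, changed by -1.97 and by -1.54 in a second probe set, while another, at 0.30, did not pass. Car14, a membrane carbonic anhydrase, read 10.96 in EP2KO and 9.58 in WT at 9 h, against 12.42 and 12.25 at 3 h, and went on to 8.41 and 8.52 at 14 h. Pparg, the nuclear receptor PPAR gamma, and Cdca7, a gene of dividing cells, had been higher by 1.25 and 0.86 at 3 h than at 0 h, and dropped to below their 0 h levels. Pparg read 8.73 in EP2KO and 7.98 in WT at 9 h, against 10.42 and 10.33 at 3 h (change -2.02 ± 0.18), and Cdca7 8.46 and 7.69 against 10.17 and 10.29 (change -2.15 ± 0.187). The contrasts from 0 to 3 h and from 9 to 14 h share arrays with that from 3 to 9 h and are given only as values beside it.

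Upstream sequence is shown for 4 genes with large changes whose promoter window holds a copy of a motif that cAMP, stress or metals are known to act through, so that a reader can see what lies there. RefSeq promoter windows on GRCm38.p6, from 250 bases before to 50 after the annotated start, were matched by symbol for 24 of the 30 genes with the largest changes. The 250 bases before the start follow, 5′ to 3′ on the gene's strand, with the matches in capitals. F3 lies at chr3:121723287-121723536, Srxn1 at chr2:152105274-152105523, Plk2 at chr13:110394794-110395043 and Mt2 at chr8:94172368-94172617, all on the + strand.
F3: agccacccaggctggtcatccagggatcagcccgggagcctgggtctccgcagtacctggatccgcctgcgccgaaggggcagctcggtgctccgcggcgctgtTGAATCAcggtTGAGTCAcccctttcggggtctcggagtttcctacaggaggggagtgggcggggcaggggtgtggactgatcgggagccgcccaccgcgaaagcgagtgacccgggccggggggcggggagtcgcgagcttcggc
Srxn1: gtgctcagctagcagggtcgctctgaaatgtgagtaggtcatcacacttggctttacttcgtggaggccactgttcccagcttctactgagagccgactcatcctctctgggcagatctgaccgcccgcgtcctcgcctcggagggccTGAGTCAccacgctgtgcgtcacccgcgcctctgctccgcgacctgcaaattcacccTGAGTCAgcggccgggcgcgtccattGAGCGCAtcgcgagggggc
Plk2: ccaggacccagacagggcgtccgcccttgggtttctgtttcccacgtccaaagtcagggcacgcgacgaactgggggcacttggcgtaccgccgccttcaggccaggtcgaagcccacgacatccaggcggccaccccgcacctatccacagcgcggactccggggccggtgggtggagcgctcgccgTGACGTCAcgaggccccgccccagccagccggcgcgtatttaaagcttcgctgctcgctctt
Mt2: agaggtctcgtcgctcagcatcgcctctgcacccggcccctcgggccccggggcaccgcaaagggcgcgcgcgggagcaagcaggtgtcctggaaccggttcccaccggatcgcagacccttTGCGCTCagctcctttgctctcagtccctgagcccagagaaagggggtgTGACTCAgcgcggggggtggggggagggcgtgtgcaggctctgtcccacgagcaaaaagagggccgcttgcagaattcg
Both strands were searched for the cAMP response element as TGACGTCA, the AP-1 element as TGANTCA and the metal response element as TGCGCNC. Only these letters were searched, so variant forms of the elements are neither marked nor counted. No 2 of the matches shown overlap. F3 holds AP-1 matches 146 and 135 bases before the start, and Srxn1 holds them at 102 and 45 with a metal response match on the other strand at 19. Plk2 holds the cAMP response element at 62, and Mt2 holds a metal response match at 128 and an AP-1 match at 79. The cAMP response element was in the windows of 1 of 12 genes that fell and 0 of 12 that rose, against 3.16% of 6576 measured genes and 1.79% of all 32851 windows. The AP-1 element was in 3 of 12 of each kind, against 7.51% of measured genes and 7.81% of windows, and the metal response element in 3 of 12 that fell and 2 of 12 that rose, against 27.6% and 15.4%. A match is a description of these letters and not a site of action.

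The 15 largest rises included genes already on the rise by 3 h and genes that started after it. S100a6, a small calcium-binding protein, read 6.93, 8.59, 11.90 and 12.40 in EP2KO cells and 6.81, 8.68, 12.09 and 11.89 in WT cells at the 4 times. Its change of 3.36 ± 0.163 (adjusted p = 6.83e-06), 10.3-fold, followed one of 1.76 by 3 h. Fabp7, a fatty acid-binding protein, read 6.88, 7.41, 10.52 and 8.80 in EP2KO cells and 7.09, 7.40, 10.32 and 9.02 in WT cells. It rose by 3.02 ± 0.135 (adjusted p = 6.33e-06), with genotypes within 0.20 of each other at 9 h, and changed by -1.51 from 9 to 14 h. Zbtb16, a zinc finger transcription factor known to be induced by progesterone and glucocorticoids in human cells, peaked at 9 h. It read 6.24, 5.95, 7.73 and 5.90 in EP2KO cells and 6.52, 5.68, 8.44 and 5.81 in WT cells, a change of 2.27 ± 0.20 followed by one of -2.23. A second Zbtb16 probe set, at 0.07, did not pass. Ssbp2, a single-stranded DNA-binding protein, read 10.20 in EP2KO and 10.19 in WT at 9 h, against 8.45 and 8.35 at 3 h.

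Transporter, lipid and amine genes were among the late rises. Abcb1b, a drug efflux pump, read 4.98, 5.14, 7.49 and 10.18 in EP2KO cells and 5.35, 4.82, 8.25 and 10.45 in WT cells, with changes of 2.89 ± 0.204 from 3 to 9 h and 2.44 from 9 to 14 h. Scd1, the stearoyl-CoA desaturase that makes monounsaturated fatty acids, read 10.78 in EP2KO and 11.20 in WT at 9 h, against 8.49 in each at 3 h. Its change was 2.50, with 2.17 in a second probe set and -0.60 (adjusted p = 0.0201) in the remaining one, which went the other way. Hdc, histidine decarboxylase, which makes histamine, read 9.68 in EP2KO and 10.06 in WT at 9 h, against 7.88 and 7.71 at 3 h, a change of 2.08 ± 0.141. Cyp4b1, a cytochrome P450, rose by 2.17 and Olr1, a receptor for oxidised LDL, by 1.97. From 0 to 3 h the changes of these 5 genes ran from -0.71 for Scd1 to -0.07 for Hdc, none of them upward.

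**Figure D2:**
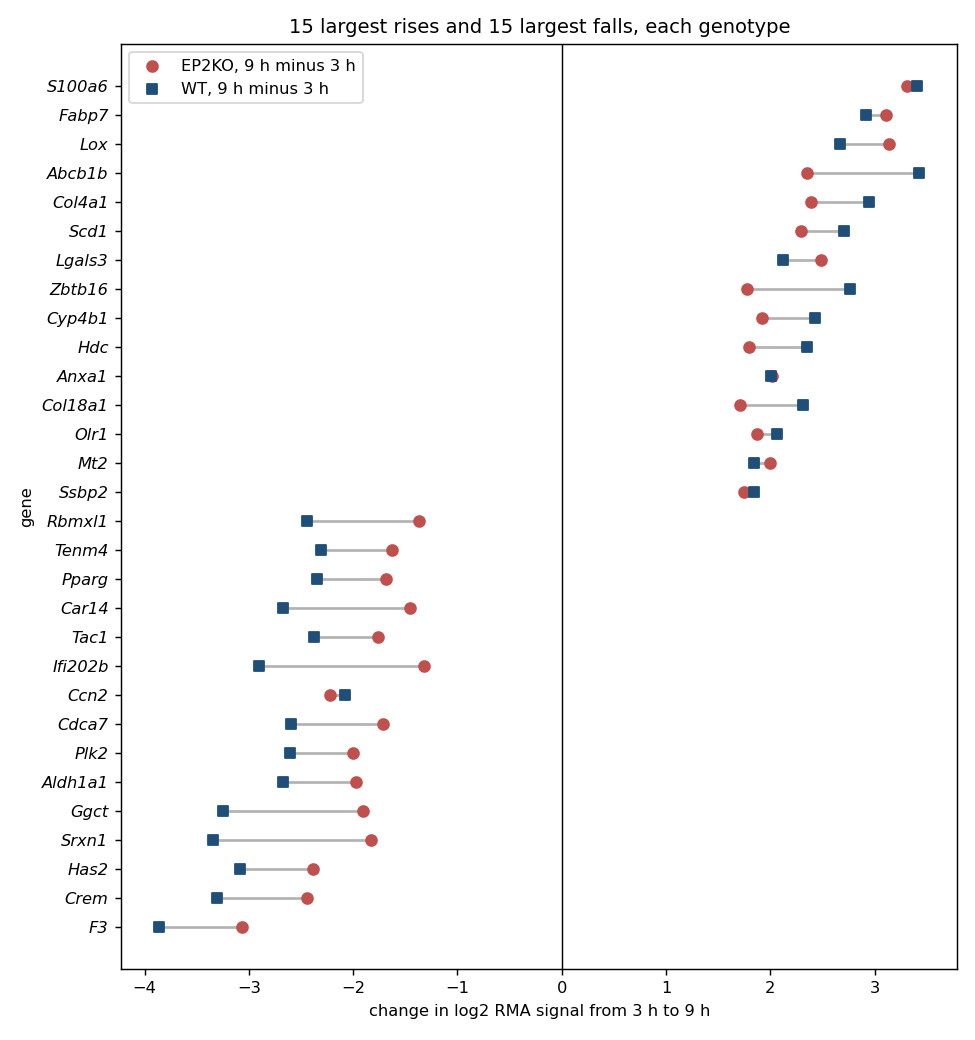
Log2 change from 3 to 9 h (horizontal axis) of the 15 genes with the largest rises and the 15 with the largest falls that passed (vertical axis), in EP2KO (circles) and WT (squares), 1 array per genotype and time. S100a6 stands at 3.31 in EP2KO and 3.41 in WT, and F3 at -3.07 in EP2KO and -3.86 in WT.

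Several transcripts of the first wave stayed high. Ptx3, pentraxin 3, which organises the hyaluronan matrix, read 7.23, 11.43, 11.81 and 8.96 in EP2KO cells and 7.54, 12.18, 11.68 and 9.51 in WT cells at the 4 times. Its 9 h and 3 h arrays overlapped, the change was -0.06 (95% interval -0.47 to 0.35), and the level dropped after ovulation. Procr, the endothelial protein C receptor, read 6.49, 10.06, 10.69 and 8.41 in EP2KO cells and 6.06, 11.61, 10.42 and 8.86 in WT cells. Its change of -0.28, with an interval from -1.09 to 0.53, is a mean of 0.63 in EP2KO and -1.19 in WT. By the limit of 2-fold used for the classes, Procr counts as an early rise that was lower at 9 h in WT cells, though still far above 0 h. Tnfaip6, which moves heavy chains onto hyaluronan, read 8.37 in EP2KO and 8.89 in WT at 9 h, against 8.88 and 9.13 at 3 h. Its change of -0.38 (adjusted p = 0.0635) did not pass. Ier3, an immediate early gene of survival signalling, stood at 11.75 in EP2KO and 12.00 in WT at 9 h and 12.00 and 12.82 at 3 h (change -0.54, adjusted p = 0.0668). Cebpb, a transcription factor needed for ovulation in mice, read 12.23 in EP2KO and 12.24 in WT at 9 h, against 11.72 and 12.25 at 3 h, and Egr1, a zinc finger factor, 10.46 and 11.03 against 10.71 and 10.98. Neither passed. A change that did not pass is not shown to be 0.

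**Figure D3:**
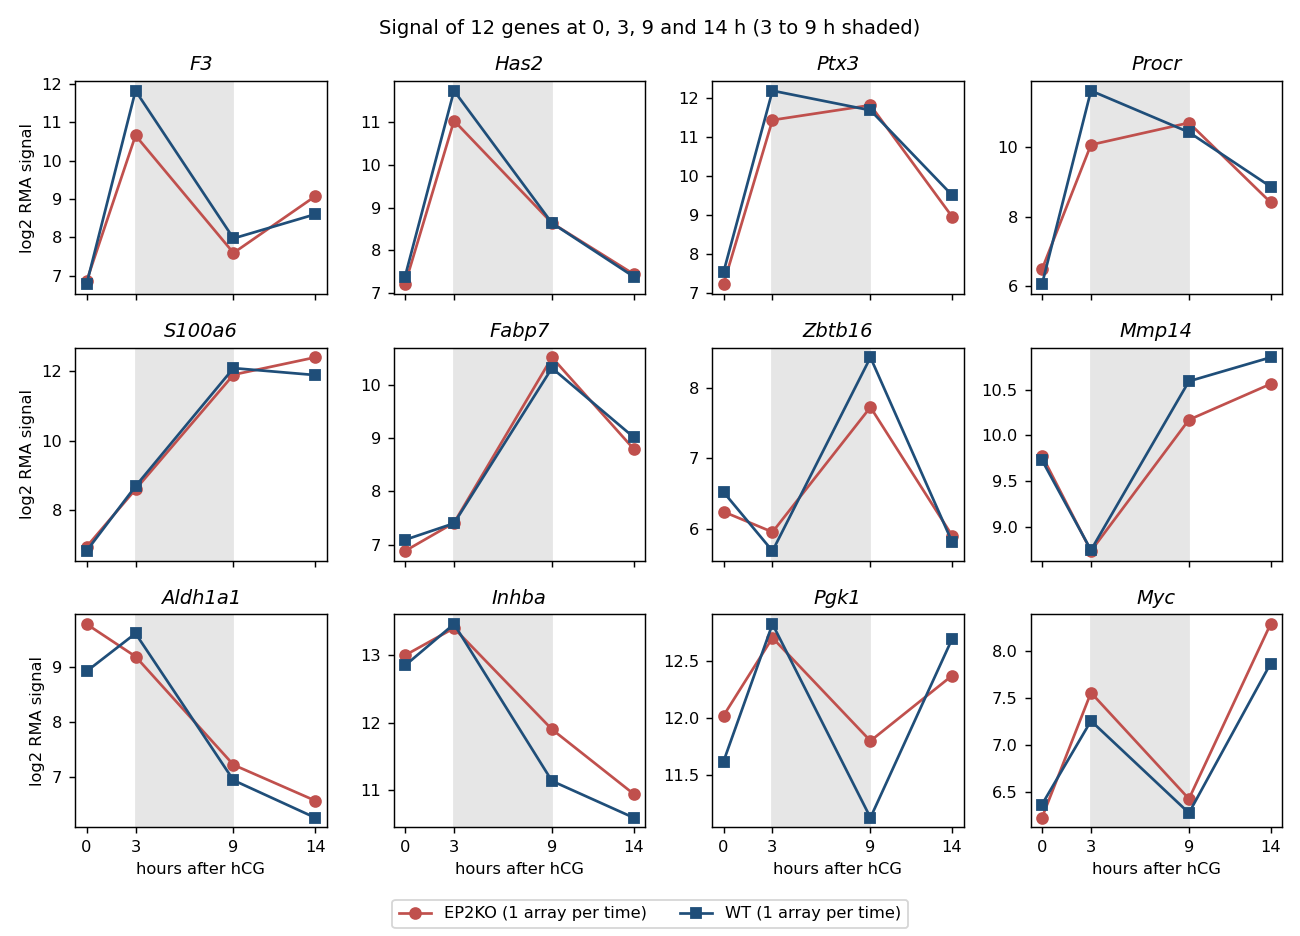
Log2 signal (vertical axes, which differ between panels) of 12 genes by hours after hCG (horizontal axes, 0 to 14 h), in EP2KO (circles) and WT (squares), 1 array per point, with the interval from 3 to 9 h shaded. F3 and Has2 fell in it and Ptx3 stayed high. Procr stayed above its 0 h level but changed by 0.63 in EP2KO and -1.19 in WT. Fabp7 and Zbtb16 peaked at 9 h, where Zbtb16 read 7.73 in EP2KO and 8.44 in WT.

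The remaining results are given by function, in 23 lists of genes. Some genes stand in several lists, so the counts of the lists are not independent. A member named with its change passed the test and kept its call whichever of the 8 arrays was left out, unless the text says otherwise. Each list's counts are to be read against the 7.42% of genes that rose and the 13.8% that fell, and its median against 0.05. These shares belong to the fit on all 8 arrays. List counts with an array left out come from fits with other totals, so they are not to be read against these shares. Every count of 1 or 2 in a list was lower without the WT array of 9 h, except the single rise among the cAMP genes. At an unadjusted p under 0.05 in limma, each count of 0 below came to 1 or 2, apart from 4 rises of theca and stroma markers. Without the EP2KO array of 3 h, 2 of those markers rose.

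**Figure D4:**
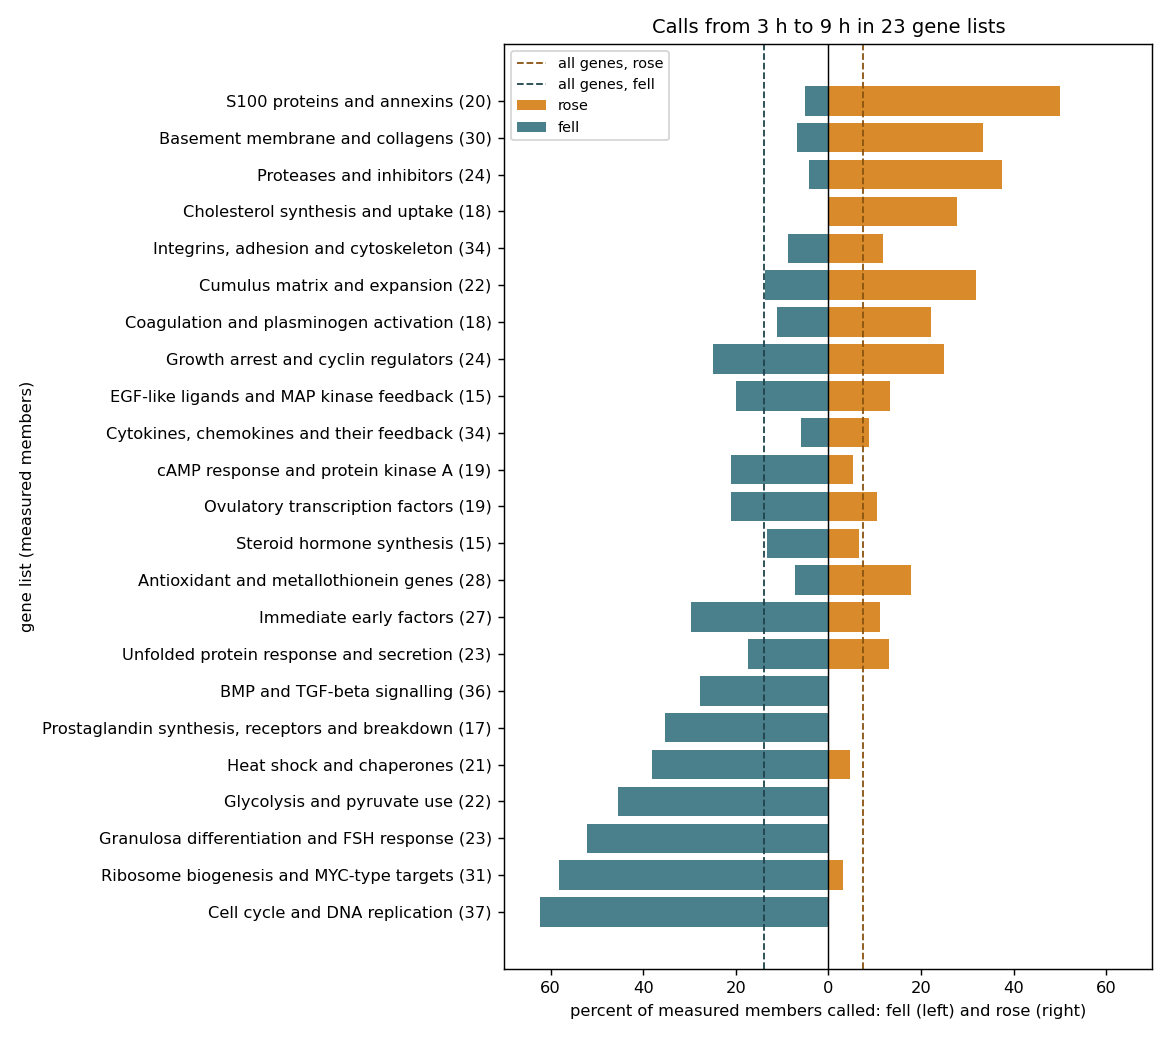
Percent of the measured members of 23 gene lists (vertical axis, members in brackets) that rose (right of 0) and that fell (left of 0) from 3 to 9 h, ordered by median change. Dashed lines mark all genes, 7.42% higher and 13.8% lower. In the S100 and annexin list 10 of 20 rose, and in the cell cycle list 23 of 37 fell.

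Of 15 measured EGF-like ligands and MAP kinase feedback genes, which start and curb the response, 3 fell and 2 rose (median 0.14). The ligands Ereg, epiregulin, and Btc, betacellulin, are agonists of the EGF receptor family, and Errfi1 is a feedback inhibitor of the receptor. Ereg read 6.93 in EP2KO and 8.19 in WT at 9 h, against 8.22 and 9.16 at 3 h, and Btc 6.41 and 6.28 against 7.02 and 7.63. Their changes were -1.13 and -0.98, and that of Errfi1 was -0.87, while a second Ereg probe set, at -0.24, did not pass. The rises were of Dusp1 (0.57), a MAP kinase phosphatase, and Spred2 (0.48), an inhibitor of RAS signalling to MAP kinase, and without the WT array of 9 h their adjusted p was 0.265 and 0.187. Dusp1 also lost its call without either 0 h array (adjusted p = 0.054) or the EP2KO array of 3 h (0.2) or 9 h (0.0886), and Spred2 without the WT array of 3 h (0.0828) or the EP2KO array of 3 h (0.079) or 9 h (0.131). No fall of this list was kept without the WT array of 3 h, where the adjusted p was 0.202 for Ereg, 0.0706 for Btc and 0.303 for Errfi1. Without the EP2KO array of 9 h it was 0.13 for Ereg and 0.23 for Errfi1, and without the WT array of 9 h 0.081 for Btc.

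Of 17 measured genes of prostaglandin synthesis, receptors and breakdown 6 fell and none rose (median -0.19). Ptgs2, the inducible cyclooxygenase, read 5.03, 11.57, 9.92 and 10.09 in EP2KO cells and 4.83, 12.27, 10.84 and 10.04 in WT cells at the 4 times. It fell by 1.54 ± 0.238 (adjusted p = 0.00224) yet stayed far above both 0 h arrays. Ptges, the inducible prostaglandin E synthase downstream of it, read 9.65 in EP2KO and 9.08 in WT at 9 h, against 10.80 and 11.41 at 3 h. It fell by 1.74 ± 0.244 to below its 0 h levels of 10.09 and 9.75. Its change from 0 to 9 h, -0.56, did not pass (adjusted p = 0.132). Ptgis, prostacyclin synthase, changed by -1.33, and Hpgd, which inactivates prostaglandins, by -1.40 after a change of -0.72 by 3 h. Ptger4, the EP4 receptor, read 6.78 in EP2KO and 6.59 in WT at 9 h, against 7.39 and 8.82 at 3 h (change -1.42, adjusted p = 0.0144). Its call was lost without the WT array of 3 h (adjusted p = 0.128) or of 9 h (adjusted p = 0.132). The summed linear signal of the list was 8060 in EP2KO and 8350 in WT at 9 h, against 11400 and 15000 at 3 h.

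Among 19 measured genes of the cAMP response 4 fell and 1 rose (median 0.07). Besides Crem, Gem, a small GTPase, fell by 1.37 to 6.62 in EP2KO and 6.50 in WT at 9 h, against 7.65 and 8.21 at 3 h. Sgk1, a kinase induced by hormones and growth factors, went the other way. It read 8.68, 10.17, 11.52 and 12.85 in EP2KO cells and 8.28, 10.63, 11.43 and 13.07 in WT cells, higher at each later time in both genotypes, with a change of 1.07 ± 0.181 from 3 to 9 h. Of 27 immediate early factors 8 fell and 3 rose (median -0.10). Btg1, an antiproliferative factor, read 8.64 in EP2KO and 8.74 in WT at 9 h, against 9.97 and 11 at 3 h (change -1.79). Myc, a driver of growth, read 6.23, 7.56, 6.43 and 8.29 in EP2KO cells and 6.37, 7.26, 6.28 and 7.87 in WT cells, so it was high at 3 h and 14 h and low between them, and fell by 1.05 ± 0.145. Nr4a1, an orphan nuclear receptor, changed by -1.21. Zfp36, which destabilises AU-rich mRNAs, rose by 0.90. Of the 8 falls 5 were left without either 0 h array, 3 without the WT array of 3 h and 4 without either 9 h array. The 3 rises came to 1 without either 0 h array, either 3 h array or the WT array of 9 h. Of 19 ovulatory transcription factors 4 fell, among them Pparg, and 2 rose (median 0.01). The falls came to 1 without the WT array of 3 h and to 2 without either 9 h array.

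Of 22 measured genes of the cumulus matrix 7 rose, 3 fell and 12 did not pass (median 0.17). The hyaluronan synthase Has2, Ptgs2 and Ccn2 made up the falls, while Vcan, the proteoglycan versican that binds hyaluronan, read 11.75 in EP2KO and 12.15 in WT at 9 h, against 11.17 and 11.51 at 3 h. Its rise of 0.61 was lost without the WT array of 3 h (adjusted p = 0.0805) or of 9 h (adjusted p = 0.162). Sdc1, the cell surface proteoglycan syndecan 1, read 10.29 in EP2KO and 10.60 in WT at 9 h, against 8.94 and 9.34 at 3 h, a rise of 1.30 ± 0.121. Tnc, the matrix glycoprotein tenascin C, rose by 0.98 after a change of -0.47 from 0 to 3 h, ahead of one of 2.92 from 9 to 14 h. Its change from 0 to 9 h, 0.52, did not pass (adjusted p = 0.0566). Ccn1, a matricellular protein related to Ccn2, rose by 1.28, opposite to Ccn2, with 8.12 in EP2KO and 8.14 in WT at 9 h, against 7.05 and 6.64 at 3 h, but not without the WT array of 3 h (adjusted p = 0.0647). The 7 rises came to 3 without the WT array of 3 h and to 4 without that of 9 h.

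Of 30 measured genes of basement membrane and collagens 10 rose and 2 fell (median 0.34). Col4a1, a chain of the type IV collagen of basement membranes, read 8.51, 8.25, 10.64 and 12.42 in EP2KO cells and 8.39, 8.59, 11.54 and 12.48 in WT cells at the 4 times, so the rise began after 3 h (2.67 ± 0.204, adjusted p = 8.74e-05). Its partner chain Col4a2 read 9.51 in EP2KO and 9.74 in WT at 9 h, against 8.47 and 8.49 at 3 h, a rise of 1.15 ± 0.119. Lox, lysyl oxidase, which cross-links collagen and elastin, read 10.22 in EP2KO and 10.20 in WT at 9 h, against 7.08 and 7.53 at 3 h (2.90 ± 0.189), and a second probe set rose by 1.07. Sparc, a collagen-binding glycoprotein, read 7.97 in EP2KO and 8.25 in WT at 9 h, against 6.43 and 6.48 at 3 h (1.66 ± 0.169), and the laminin chain Lamb1 rose by 0.90. Col18a1, the source of endostatin, gave changes from 0.54 to 2.01 in 4 probe sets and -0.10, not passing, in another. Without the WT array of 9 h 6 of the list rose.

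Of 24 measured proteases and inhibitors 9 rose and 1 fell (median 0.29). Mmp14, a membrane-bound metalloproteinase that cuts collagen, read 9.78, 8.74, 10.17 and 10.56 in EP2KO cells and 9.73, 8.75, 10.59 and 10.85 in WT cells, a dip at 3 h followed by a rise of 1.64 ± 0.141. Timp1, a metalloproteinase inhibitor, read 12.77 in EP2KO and 13.03 in WT at 9 h, against 11.46 and 12.01 at 3 h (1.17 ± 0.133), with 0.47, not passing, in a second probe set. Pcsk5, a proprotein convertase, rose by 1.14, but its adjusted p was 0.0503 without the WT array of 9 h and 0.0664 without the EP2KO array of 3 h. Of the 9 rises 5 were left without the WT array of 3 h and 3 without that of 9 h. In the list of coagulation and plasminogen activation, with 18 measured, 4 rose and 2 fell (median 0.16). F3 fell as described, whereas F2r, the thrombin receptor PAR1, read 11.31 in EP2KO and 11.56 in WT at 9 h, against 10.19 and 10.48 at 3 h, a rise of 1.10 ± 0.112. The other F2r probe sets, at 0.23 (adjusted p = 0.201) and 0.18 (adjusted p = 0.277), did not pass. The rises of this list came to 1 without the WT array of 9 h and 2 without the EP2KO array of 9 h.

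The S100 and annexin list, which holds calcium-binding and membrane-linked proteins with their partners, had 10 of 20 measured members rising and 1 falling (median 0.53). Lgals3, galectin 3, read 4.97, 5.99, 8.48 and 10.10 in EP2KO cells and 5.14, 6.58, 8.70 and 9.36 in WT cells at the 4 times, a change of 2.31 ± 0.243. Anxa1, annexin A1, read 10.04 in EP2KO and 10.42 in WT at 9 h, against 8.02 and 8.41 at 3 h (2.02 ± 0.187), with 1.91 and, not passing, 0.83 in other probe sets. Lgals1, galectin 1, rose by 1.54, Emp3, a membrane protein, by 1.70 and Ahnak, a scaffold of annexin complexes, by 1.48, while a second Emp3 probe set, at 0.33, did not pass. Emp1, a relative of Emp3, rose by 1.25 ahead of a change of 3.12 from 9 to 14 h, with 8.36 in EP2KO and 8.59 in WT at 9 h, against 7.15 and 7.29 at 3 h. The summed signal of the list was 31500 in EP2KO and 34800 in WT at 9 h, against 13200 and 16700 at 3 h. Alcam, an adhesion molecule, read 5.24, 7.07, 8.71 and 8.46 in EP2KO cells and 5.20, 7.94, 9.17 and 9.01 in WT cells, and rose by 1.44 ± 0.182. It stands in the list of integrins, adhesion and cytoskeleton, where 4 of 34 rose and 3 fell (median 0.17). Without any 1 of the WT arrays of 3 and 9 h and the EP2KO array of 9 h its rises came to 1, and without either of these WT arrays its falls came to 0.

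Of 18 measured genes of cholesterol synthesis and uptake 5 rose and none fell (median 0.18). Msmo1, a sterol oxidase, read 10.59, 11.18, 12.27 and 9.77 in EP2KO cells and 10.20, 10.79, 12.25 and 10.09 in WT cells at the 4 times, a rise of 1.27 ± 0.172 that was followed by a change of -2.33. Mvd, of the mevalonate path, rose by 0.97, with 10.08 in EP2KO and 9.74 in WT at 9 h, against 9.28 and 8.60 at 3 h. The 5 rises came to 3 without the WT array of 3 h and 2 without that of 9 h. Of 15 steroid synthesis genes 1 rose and 2 fell (median -0.04). Star, which brings cholesterol into mitochondria, read 6.29, 10.01, 9.73 and 8.30 in EP2KO cells and 6.72, 11.22, 10.18 and 8.96 in WT cells. Its change of -0.66 (adjusted p = 0.0279) left it well above 0 h, was lost without the WT array of 3 h (adjusted p = 0.312) or of 9 h (adjusted p = 0.298), and stood beside 0.28, not passing, in a second probe set. The Star call was also lost with no genotype term (adjusted p = 0.198), on the 4 arrays of 3 and 9 h alone (0.0887) and after quantile normalization (0.0886). Hsd17b1, which makes estradiol from estrone, changed by -1.31, a call lost without the WT array of 3 h (adjusted p = 0.054).

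Of 22 measured glycolysis genes 10 fell and none rose (median -0.42). Pfkp, a phosphofructokinase, read 10.06, 10.30, 8.90 and 9.51 in EP2KO cells and 9.56, 10.53, 8.09 and 9.78 in WT cells, a fall of 1.92 ± 0.234, and a second probe set changed by -1.52. Pgk1, phosphoglycerate kinase, read 12.02, 12.70, 11.80 and 12.37 in EP2KO cells and 11.62, 12.82, 11.13 and 12.69 in WT cells, a fall of 1.29 ± 0.207. Both were lowest at 9 h among the 4 times in each genotype. Pkm, pyruvate kinase, changed by -0.69, which did not pass without the WT array of 3 h (adjusted p = 0.0993) or of 9 h (adjusted p = 0.168), and a second probe set, at -0.04, did not pass. The 10 falls came to 2 without either WT array of 3 or 9 h. Of 28 antioxidant and metallothionein genes 5 rose and 2 fell (median -0.05). Mt2, a metallothionein, which binds zinc and copper, read 9.82, 11.29, 13.29 and 11.84 in EP2KO cells and 9.77, 11.83, 13.67 and 11.79 in WT cells, a peak at 9 h reached by a rise of 1.92 ± 0.16. Mt1 rose by 1.17 to 12.69 in EP2KO and 12.83 in WT at 9 h, against 11.37 and 11.81 at 3 h. Srxn1 of the same list fell. The rises came to 3 without the WT array of 3 h or the EP2KO array of 9 h and to 2 without the WT array of 9 h.

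Of the 23 lists the one with the largest share of falls was that of the cell cycle and DNA replication, where 23 of 37 measured genes fell and none rose (median -0.71, with -0.59 in EP2KO and -0.81 in WT). Mcm7, part of the replicative helicase, read 10.33, 10.54, 9.30 and 8.63 in EP2KO cells and 9.93, 10.66, 8.69 and 8.47 in WT cells at the 4 times, a fall of 1.60 ± 0.164 (adjusted p = 0.000306). Mcm5 of the same complex fell by 1.23 and Pola1, the catalytic subunit of DNA polymerase alpha, by 1.39, while a second Mcm5 probe set pointed the other way at 0.40 without passing (adjusted p = 0.061). Bub1, a kinase of the spindle checkpoint, read 8.01 in EP2KO and 7.80 in WT at 9 h, against 9.24 and 9.12 at 3 h, a fall of 1.27 ± 0.147, with -0.34 and -0.12, not passing, in its other probe sets. Mki67, the proliferation marker Ki-67, changed by -0.79, a call lost without the WT array of 9 h (adjusted p = 0.0781), and by 0.44, not passing, in a second probe set. Without that array 12 of the list fell, and 12 members kept their call whichever array was left out. Of 24 growth arrest genes and cyclin regulators 6 rose and 6 fell (median 0.14). Ccnd2, cyclin D2, the D-type cyclin of FSH-driven granulosa growth, read 10.07 in EP2KO and 9.63 in WT at 9 h, against 11.37 and 11.61 at 3 h (-1.64 ± 0.159), while Ccnd3, cyclin D3, rose by 0.76. Ccng2, a cyclin linked to cell cycle arrest, fell by 1.57 and Gas6, a ligand of TAM receptors, by 1.06. The 6 rises came to 2 without the WT array of 3 h or of 9 h.

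Falls also prevailed in the list of ribosome production. Of 31 measured genes of ribosome biogenesis and MYC-type targets 18 fell and 1 rose (median -0.52, with -0.28 in EP2KO and -0.77 in WT). Nop56, a core protein of box C/D snoRNPs, read 9.55, 10.44, 9.27 and 9.15 in EP2KO cells and 9.28, 10.70, 9.07 and 8.83 in WT cells, a fall of 1.40 ± 0.151, with -0.42, not passing, in a second probe set. Odc1, ornithine decarboxylase, which starts polyamine synthesis, read 10.92 in EP2KO and 10.94 in WT at 9 h, against 12.06 and 12.59 at 3 h (-1.40 ± 0.159). Rrs1, a ribosome assembly factor, fell by 1.35. The falls came to 8 without the WT array of 3 h and to 6 without that of 9 h. Of 21 heat shock and chaperone genes 8 fell, Hspd1, the mitochondrial chaperonin, among them (-0.65, with 0.09, not passing, in a second probe set), and 1 rose (median -0.33). No fall of this list was kept without the WT array of 3 h or of 9 h, where Hspd1 had an adjusted p of 0.0671 and 0.184. Of 23 genes of the unfolded protein response and secretion 4 fell and 3 rose (median -0.10). The falls came to 0 without either of these WT arrays, and the rises to 1 without the WT array of 3 h and to 0 without either 9 h array.

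Of 23 measured genes of granulosa differentiation and FSH response, which mark the growing follicle, 12 fell and none rose (median -0.46). Inhba, the beta A subunit of activin and inhibin, read 12.99, 13.39, 11.90 and 10.95 in EP2KO cells and 12.84, 13.45, 11.14 and 10.60 in WT cells at the 4 times, a fall of 1.90 ± 0.174 (adjusted p = 0.000203) that began after 3 h. Fst, follistatin, which binds activin, fell by 0.96, Kitl, kit ligand, a growth factor for the oocyte, by 1.39 and Esr2, estrogen receptor beta, by 1.20. Esr2 read 9.46 in EP2KO and 8.67 in WT at 9 h, against 10.50 and 10.02 at 3 h. Fshr, the FSH receptor, had made most of its drop by 3 h and changed by -0.45, a call lost without the WT arrays of 3 h (adjusted p = 0.224) and 9 h (0.181) or the EP2KO arrays of 3 h (0.0686) and 9 h (0.24). The 12 falls came to 5 without the WT array of 3 h and to 7 without that of 9 h. Of 36 genes of BMP and TGF-beta signalling 10 fell and none rose (median -0.12). Inhba, Inhbb, Fst, Bmpr1b and Bmpr2 are counted among the falls of both this list and the granulosa list. Id3, an inhibitor of differentiation induced by BMPs, fell by 1.30, the SMAD co-repressor Tgif1 by 1.40 and Bmp6 by 0.98. Id3 read 11.59 in EP2KO and 10.76 in WT at 9 h, against 12.66 and 12.29 at 3 h. The 10 falls came to 5 without either WT array of 3 or 9 h.

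Of 34 cytokine, chemokine and feedback genes 3 rose and 2 fell (median 0.10). Socs3, an inhibitor of cytokine signalling through STAT3, read 8.79 in EP2KO and 9.27 in WT at 9 h, against 7.58 and 7.63 at 3 h (1.43 ± 0.16), with 0.40, not passing, in a second probe set. Osmr, the oncostatin M receptor, rose by 1.21. Il1r1, the interleukin 1 receptor, read 8.81, 10.51, 9.44 and 10.90 in EP2KO cells and 8.09, 10.91, 9.38 and 10.90 in WT cells, so it dipped at 9 h (-1.30 ± 0.21).

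Markers of other cells are given by list, and the summed signal of some lists was higher at 9 h than at 3 h in both genotypes. Of 29 measured leukocyte markers 3 rose and none fell (median 0.16, summed signal 5690 in EP2KO and 5830 in WT at 9 h, against 4950 and 4840 at 3 h), of which Cd52, a surface glycoprotein, rose by 0.94 and kept its call whichever array was left out. The rises came to 1 without the WT array of 3 h or of 9 h. Of 12 endothelial markers 2 rose, Cdh5 and Eng, and none fell (median 0.24). The call of Eng was lost when any of the 3 h or 9 h arrays was left out. The summed signal of the endothelial list was 3350 in EP2KO and 3410 in WT at 9 h, against 2740 and 2680 at 3 h. Cdh5, VE-cadherin, read 7.79 in EP2KO and 8.47 in WT at 9 h, against 6.29 and 6.40 at 3 h, a rise of 1.78 ± 0.184, while Pecam1, another defining marker, changed by 0.14 and did not pass. None of 19 theca and stroma markers passed (median 0.14, summed signal 4150 in EP2KO and 4140 in WT at 9 h, against 3800 and 3540 at 3 h). Of 15 oocyte and of 12 oviduct markers 1 rose and 1 fell each, with medians of 0.06 and 0.21. Summed signals of the oocyte list were 2210 in EP2KO and 2440 in WT at 9 h, against 2710 and 2130 at 3 h, and of the oviduct list 3090 and 3160 against 3240 and 3180. Of 12 markers of cumulus and granulosa identity 5 fell, namely Inhba, Fst, Fshr, Inhbb and Kitl (median -0.31). All 5 are also counted in the granulosa differentiation list, so they are no separate result. The summed signal of the 12 was 40900 in EP2KO and 38400 in WT at 9 h, against 54500 and 53500 at 3 h. Those falls came to 3 without the WT array of 3 h, the WT array of 9 h or the EP2KO array of 3 h. RMA signals have no true 0, so no marker can be given as absent. The part of other cells in the changes was not tested.

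Of the erythroid markers, Hba-a1 and Hbb-b2 varied widely between arrays. Hba-a1, alpha globin, read 10.94 in EP2KO and 13.39 in WT at 9 h, against 11 and 12.21 at 3 h, and Hbb-b2, a beta globin, 7.98 and 10.34 against 7.81 and 8.71. The WT array of 9 h was the highest for both, and at 3 h the WT array was also above the EP2KO array. At 14 h Hbb-b2 read 9.51 in EP2KO and 9.55 in WT. Neither change passed (0.56 ± 0.527 and 0.90 ± 0.501). Of 8 erythroid markers 1, Epb42, rose and 1, Alas2, fell (median 0.29). The summed signal of the list was 3320 in EP2KO and 13200 in WT at 9 h, against 3400 and 6340 at 3 h. It adds linear signals, so members with high levels such as Hba-a1 weigh most in it.

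The change from 3 to 9 h differed in size between the genotypes. In EP2KO cells 102 probe sets (0.821%) were at least 2-fold higher at 9 h and 119 lower, and in WT cells 162 higher and 505 lower. The standard deviation of the change over probe sets was 0.343 in EP2KO and 0.508 in WT. The changes of the genotypes correlated with r = 0.822 across probe sets, which share the arrays and are not independent. With 1 array per genotype and time the difference between genotypes was not tested, and the WT array of 3 h, which enters every WT change, had the widest spread of values. The 3' minus 5' gap of Gapdh also widened unequally from 3 to 9 h, from 0.96 to 1.22 in EP2KO and from 0.80 to 1.71 in WT. That of Actb went from 0.76 to 1.12 in EP2KO and from 0.73 to 1.54 in WT. The part of these gaps in the difference was not tested. After quantile normalization 100 were higher and 99 lower in EP2KO, and 166 and 358 in WT, so fewer falls but the same order. With all arrays scaled to equal spread it was 96 and 109 in EP2KO, and 155 and 433 in WT. Both scalings were chosen after seeing the data.

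Some genes moved unequally in the 2 genotypes, and among probe sets above the median level those with the widest gaps are given, as values. Procr changed by 0.63 in EP2KO and -1.19 in WT, with a 9 h level of 10.69 in EP2KO and 10.42 in WT, so the gap lay at 3 h. Ddc, an aromatic amino acid decarboxylase, changed by -0.75 in EP2KO and -2.42 in WT, Srxn1 by -1.83 and -3.34, Piga, which starts the synthesis of GPI anchors, by -0.91 and -2.40, and Bex1 by -1.19 and -2.55. For each of these the 9 h levels were within 0.40 of each other and the 3 h level was higher in WT by at least 1.12. In the other direction Nr4a1 changed by -1.74 in EP2KO and -0.68 in WT and read 8.81 in EP2KO and 10.06 in WT at 9 h, against 10.55 and 10.74 at 3 h. Bcl2l10, a BCL2 relative, changed by -2.05 in EP2KO and -1.01 in WT, while its more highly expressed probe set changed by 0.19 over both. Pip4k2c, a phosphoinositide kinase, changed by 0.21 in EP2KO and 1.29 in WT, while its second probe set, at 0.14 over both, did not pass. The globins Hbb-b2 and Hba-a1 completed the set, with 0.17 and -0.06 in EP2KO, against 1.63 and 1.18 in WT.

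**Figure D5:**
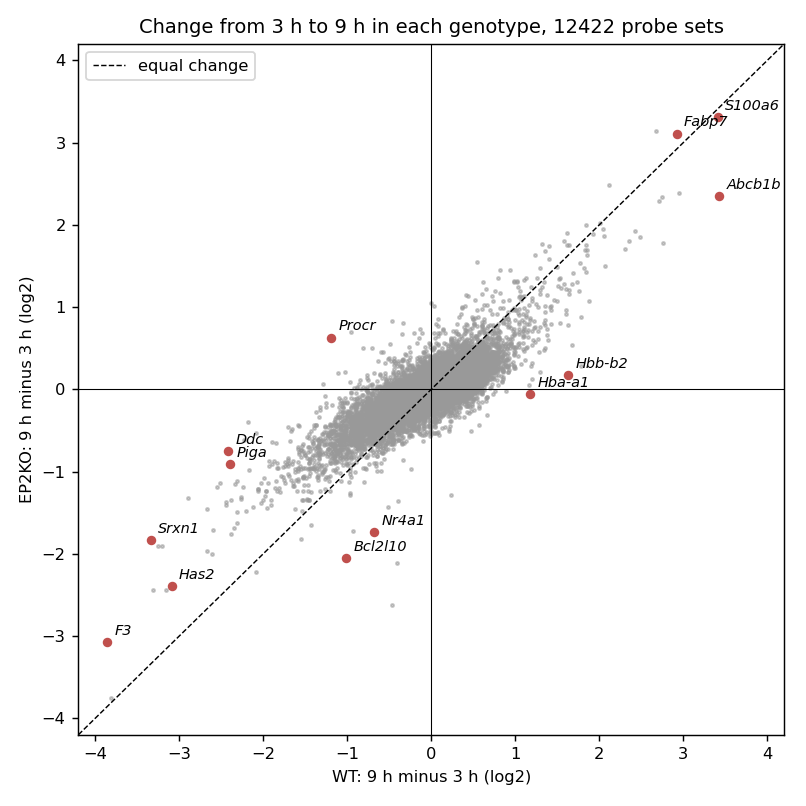
Log2 change from 3 to 9 h in EP2KO (vertical axis) against that in WT (horizontal axis) for 12422 probe sets, each from 1 array per time, with the line of equal change dashed and 13 genes named. Procr, at 0.63 in EP2KO and -1.19 in WT, lies where the genotypes moved oppositely, and the globins lie near 0 in EP2KO.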

How the data were processed

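Cumulus cell RNA was measured on Affymetrix MG_U74Av2 arrays, 1 per genotype and time. The authors deposited log2 signals per probe set made with RMA, per the submitters' processing notes, with the version not given in the sources used here. Those values were used as deposited, and 66 control probe sets were left out. A gene symbol was taken from the platform annotation for 10833 probe sets with 1 symbol, whereas 396 had several and 1193 none. The 8 arrays were fitted in limma (3.58.1, in R 4.3.3) with time and genotype as additive terms, which left 3 residual degrees of freedom beside a prior of 7.24, and p-values were adjusted over 12422 probe sets by the Benjamini-Hochberg method. The median standard error of the change was 0.130. With 1 array per group, that number limits the precision. The fit was tested on simulated data.

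Named genes were the 15 rises and 15 falls with the largest change among called probe sets with 1 symbol and 1 sign in both genotypes, each gene by its probe set with the smallest p, then members of the lists, Ptger2, and the 5 genes at each end of the genotype difference among probe sets above the median mean. Lists held 728 symbols, of which 616 were measured, where a gene with several probe sets was represented by the one of highest mean signal. The members and lists were chosen with earlier results of these data known. Alternatives were other sets of arrays, no genotype term, median centring, quantile normalization, a filter on the lowest 40% of probe sets, other priors, array weights, other choices among the probe sets of a gene, other class limits, and each array left out in turn.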

Additional observations from a re-analysis of the deposited data

Results flagged for a closer look

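Of the genes given with values, 6 had changes of opposite sign in the 2 genotypes between 3 and 9 h. Each was seen on 1 array per genotype and time, and the difference was not tested. The differences, EP2KO change minus WT change on the log2 scale, were 1.82 for Procr, -1.24 for Hba-a1, 1.05 for Ptger2, 0.88 for Ptx3, 0.52 for Cebpb and -0.30 for Egr1. For Procr, Ptx3 and Cebpb the 9 h level was above the 3 h level in EP2KO cells and below it in WT cells. At 3 h the WT level of these was the higher of the genotypes. The WT change of Cebpb was only -0.01. Egr1 changed by 0.05 in WT and Hba-a1 by -0.06 in EP2KO, so for Cebpb, Egr1 and Hba-a1 1 genotype hardly moved. For Ptger2, the gene deleted in EP2KO mice, the levels at 3 and 9 h were low, from 4.24 to 5.97. The Hba-a1 signal is itself part of the summed erythroid signal of 3320 in EP2KO and 13200 in WT at 9 h, so that sum is no separate evidence. Of the 616 measured list genes, 118 had changes of opposite sign. Any difference in sign counts here, however small, and the share over all genes is not given, so nothing is read from this count.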

How the results depend on the processing

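The 30 genes with the largest changes, each read by the probe set named for it, kept their direction and their call in each of the 17 other fits that tested them. With the lowest 40% of probe sets left out 25 of them were tested, without Abcb1b, Zbtb16, Olr1, Ifi202b and Tac1. For Srxn1, Scd1, Aldh1a1, Zbtb16, Anxa1, Col18a1 and Tenm4, 1 of the other probe sets turned sign or did not pass. The counts of calls did not hold as well. From the 4 arrays of 3 and 9 h alone, 385 probe sets rose and 872 fell, with fewer residual degrees of freedom. With 1 array left out, the rises ranged from 163 to 1039 and the falls from 326 to 1583, where the lone array left at a time is assumed to vary like the others. Rises of at least 2-fold ranged from 92 to 146 and falls of that size from 151 to 424. Under the other settings of the fit, 692 to 1261 rose and 1206 to 1694 fell. The share of early rises that were lower at 9 h was 5.42% with classes set in WT and read in EP2KO, 52.8% with a limit of 1.5-fold and 20.7% with one of 3-fold, the same limit being used for both steps. In these settings, in that order, the share of early rises still above 0 h by the limit at 9 h was 27.8%, 49.2% and 56.1%. The cause of the lower shares with classes set in WT was not tested. Changes that did not pass could turn sign when 1 array was left out. Hbb-b2 ranged from -0.22 to 2.02 and Hba-a1 from -0.57 to 1.69, lowest without the WT array of 9 h. Procr ranged from -1.10 to 0.54, Ptx3 from -0.39 to 0.27, Ptger2 from -0.63 to 0.48, Cebpb from -0.16 to 0.66 and Egr1 from -0.26 to 0.06. After quantile normalization Ptx3 gave 0.16 and Egr1 0.13. No paired analysis was possible because, for pairing by replicate number, each group has 1 array and all carry the number 1. The genotype term does set each 9 h array against the 3 h array of its genotype, also in the fit on 4 arrays, but the labels link no animals. Among smaller changes, calls were lost on the 4 arrays alone for Star, Ptger4, Fshr, Ddc, Pip4k2c, Spred2 and Dusp1, after quantile normalization for Star, Errfi1 (adjusted p = 0.12), Fshr and Pip4k2c, with no genotype term for Star, Ereg and Spred2, after median centring for Pip4k2c and Dusp1, and with a robust prior for Ptger4. No detection calls were used, so low signals could not be told from background.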
